A study of Drosophila melanogaster with 62 samples.

Results

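In 4C-seq, fragments ligated to 1 chosen fragment, the viewpoint, are sequenced and counted along the genome, so that a high count marks DNA lying near the viewpoint in the nucleus. From a viewpoint at PRE2 of the dac gene (bin chr2L:16487001-16488000, dm6), wild-type leg discs held 285 far hotspots among 22513 1-kb bins of chromosome arm 2L lying more than 500 kb away. Each count was taken as a share of its library's 2L counts outside 5 kb of the viewpoint and is given per 100000 of these counts. A bin was taken as a hotspot if its mean share lay above the 97th percentile of the far bins in larval WT leg discs and again in pupal WT leg discs, with a count in all 6 libraries. The bins were thus selected on the measured values of these 6 libraries, which are described without a test.

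The series holds 4C-seq of 8 groups of Drosophila melanogaster material with 3 libraries each, all counted from PRE2 and from a second viewpoint named gypsy2, 22 kb to its left. The wild-type groups were larval imaginal leg discs, pupal imaginal leg discs and embryos, here larval WT, pupal WT and embryo WT. Flies with a gypsy insertion gave embryos of the gypsy1 insertion and, of the gypsy2 insertion, larval imaginal leg discs, pupal imaginal leg discs and embryos. A further embryo group carries WT in its titles and a gypsy insertion in its genotype field. It is called titled WT, and every comparison with it compares the embryo gypsy2 libraries with libraries of unsettled genotype. The labels give no age in hours, no sex and no insertion site, and do not say whether the libraries of a group came from separate cultures or animals, so p-values measure only the spread between these libraries.

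dac encodes a nuclear factor that patterns the middle of the leg. Polycomb response elements (PREs) are DNA elements that recruit Polycomb proteins, which keep developmental genes silent, and PREs of the same locus or of distant loci can meet in the nucleus. gypsy is a retrotransposon that carries an insulator, an element known to block communication between enhancers and promoters. Contact counts in 4C-seq fall with distance along the chromosome, and they also depend on where the restriction enzymes cut. Each library pools many cells, so that a contact made in more cells and a contact made more often per cell cannot be told apart.

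The sequence of 4 hotspot windows is printed because the hotspots shared 2 short words that the choice of bins did not read directly. All 285 hotspots held GATC, and all 285 held CATG. Both words read the same on either strand, and a copy of one can share its end base with a copy of the other. Of all far bins, 85% held GATC, 94.2% held CATG and 80.3% held both. Hotspots, unlike far bins at large, had to hold a count in all 6 libraries that chose them. Of 4 other palindromes of the same length counted the same way, GTAC was missing from 33 hotspots, GGCC from 15, and TTAA and AGCT from 4 each. No source used here names the enzymes of the 4C libraries. The windows of 300 bases lie on the + strand of dm6, and capitals mark GATC and CATG. They come from the top-ranked hotspot (CG15269, chr2L:15109585-15109884), the hotspot next in rank (wek, chr2L:15767102-15767401), a hotspot whose first base lies 7863 bases past the last base of esg (chr2L:15344001-15344300) and a hotspot in stol that was called in embryos (chr2L:15650164-15650463). Exons fill 59.6% of the 1-kb bin at CG15269, 94% of that at wek, 65.3% of that at stol and none of that near esg, and the windows hold no UTR.
CG15269 hotspot: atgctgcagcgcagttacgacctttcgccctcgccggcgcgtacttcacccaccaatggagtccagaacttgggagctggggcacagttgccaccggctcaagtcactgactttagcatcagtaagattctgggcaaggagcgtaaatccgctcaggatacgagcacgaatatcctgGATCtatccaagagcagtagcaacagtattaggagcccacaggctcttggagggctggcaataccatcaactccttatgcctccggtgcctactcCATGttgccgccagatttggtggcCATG
wek hotspot: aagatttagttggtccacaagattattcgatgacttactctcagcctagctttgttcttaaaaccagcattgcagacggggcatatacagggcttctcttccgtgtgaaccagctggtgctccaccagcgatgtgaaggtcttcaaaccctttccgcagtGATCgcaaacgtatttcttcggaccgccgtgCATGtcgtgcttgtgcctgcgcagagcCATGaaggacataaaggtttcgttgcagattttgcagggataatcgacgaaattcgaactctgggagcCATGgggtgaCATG
hotspot near esg: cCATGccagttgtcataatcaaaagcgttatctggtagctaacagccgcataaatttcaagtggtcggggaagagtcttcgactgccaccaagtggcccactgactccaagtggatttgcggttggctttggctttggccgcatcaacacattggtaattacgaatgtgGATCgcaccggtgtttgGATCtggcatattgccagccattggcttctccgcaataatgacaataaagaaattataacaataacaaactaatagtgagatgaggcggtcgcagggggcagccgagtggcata
stol hotspot: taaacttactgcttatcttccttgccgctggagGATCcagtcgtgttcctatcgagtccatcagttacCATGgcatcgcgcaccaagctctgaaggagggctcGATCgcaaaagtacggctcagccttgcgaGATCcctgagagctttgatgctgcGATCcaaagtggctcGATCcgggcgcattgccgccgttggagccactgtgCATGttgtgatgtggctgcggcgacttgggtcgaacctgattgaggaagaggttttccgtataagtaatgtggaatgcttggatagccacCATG

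Sequencing depth differed widely between groups. Total counts per library ran from 800269 to 25904672, with embryo WT and gypsy1 between 800269 and 1466765 and embryo titled WT and gypsy2 between 14352639 and 25904672. The far bins held 32.0% to 49.7% of the 2L counts, and a hotspot had a median count of 40 to 891 per library. Between 0 and 19 hotspots were at 0 in a library outside the 6 that chose the bins. In the median hotspot the coefficient of variation over the 3 libraries of a group was 20.3% to 60.3%, where counting error alone gives 3.51% to 13.3%. The spread between libraries was thus larger than counting error in every group, and no library pair held identical values.

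By their choice, the hotspots stood well above the far bins. The threshold was 7.39 per 100000 in larval WT and 8.96 in pupal WT. The median hotspot lay at 10.1 in larval WT and 11.5 in pupal WT, where the median far bin lay at 1.02 and 1.10. Just inside the threshold lay bins at 7.393, 7.396 and 7.424 in larval WT and at 8.972, 8.982 and 9.03 in pupal WT. Just outside lay bins at 7.387, 7.387 and 7.386 and at 8.958, 8.948 and 8.938, so the edge of the set is not a gap in the values. Of the 676 bins above the threshold in each stage, 288 were above it in both, and 3 of these were dropped for a library at 0. Only 18 hotspots lay above the 97th percentile in each of the 6 libraries taken alone. Across the 285 hotspots the larval and pupal means had a Spearman correlation of 0.22, a description over bins that share libraries and a lower limit on their values.

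**Figure D1:**
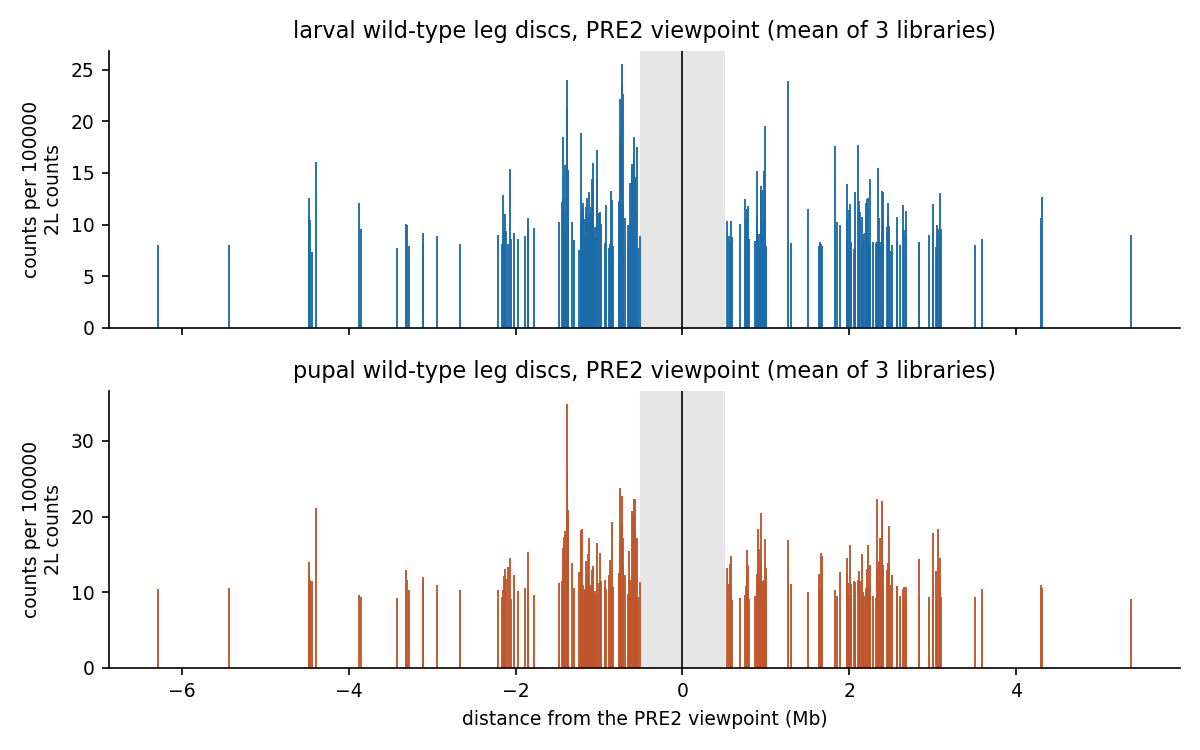
Mean counts per 100000 2L counts (vertical axes) of the 285 hotspot bins against their distance from the PRE2 viewpoint in Mb (horizontal axis), in larval WT (top) and pupal WT (bottom), mean of 3 libraries each. The grey band marks the 500 kb on either side that were left out, and the tallest lines stand at 25.5 in larval WT and 34.9 in pupal WT.

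Most hotspots lay within 2 Mb of PRE2, unevenly on its 2 sides. There were 160 among 15987 far bins to the left and 125 among 6526 to the right, from 6.29 Mb on the left to 5.38 Mb on the right, with a median distance of 1.37 Mb. Within 2 Mb lay 185 hotspots (64.9%), and 28 lay beyond 3 Mb. On the left, 66 of 500 bins (13.2%) at 0.5 to 1 Mb were hotspots, then 65 of 1000 (6.5%) at 1 to 2 Mb and 14 of 1000 (1.4%) at 2 to 3 Mb. On the right, 37 of 500 bins (7.4%) at 0.5 to 1 Mb were hotspots and 17 of 1000 (1.7%) at 1 to 2 Mb, but 58 of 1000 (5.8%) at 2 to 3 Mb. The density thus fell with distance on the left and rose again at 2 to 3 Mb on the right. Of these 58 hotspots, 8 lay within 10 kb of the LIM-homeodomain gene tup, and the others lay elsewhere in the band. The band was high at large, with a median far-bin share of 3.52 in larval WT and 3.69 in pupal WT. At 0.5 to 1 Mb on the right these medians were 3.28 and 3.16. None of the 1513 far bins past 22 Mb, next to the centromere, was a hotspot.

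The hotspots lay in groups along the arm. Joined wherever at most 10 kb separated neighbours, they formed 98 clusters, of which 51 were single bins and 47 held the other 234 hotspots. The 5 largest clusters held 87 hotspots (30.5%) and the 10 largest held 124 (43.5%), and 85 hotspots touched another hotspot directly. The largest, with 25 bins over 52 kb (chr2L:15878001-15930000), ran from CG7653 and CG44475 over Tep1, which encodes a thioester-containing immune protein, CG31735 and CG31821 to beat-Ib, an immunoglobulin-family gene, and CG4793. The next, with 23 bins over 42 kb (chr2L:15729001-15771000), covered CycE (the cyclin of entry into S phase), ND-B17 (a subunit of respiratory complex I), Mtr4 (a helicase that works with the RNA exosome), Gli (gliotactin of tricellular junctions), wek (a zinc-finger protein of the Toll pathway) and Ku80 (DNA end joining). To the right of PRE2, 15 bins over 60 kb (chr2L:17430001-17490000) held the NF-kB genes Dif and dl and the dynein adaptor gene BicD.

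The remaining large clusters lay mostly 1 to 1.5 Mb to the left of PRE2. A cluster of 14 bins (chr2L:15093001-15118000) covered wwk, CG15269 and stc. Next to it, 10 bins (chr2L:15046001-15078000) covered ck, a myosin gene, TfIIS, a transcription elongation factor gene, and vas, which encodes a germline RNA helicase. There were 3 clusters of 8 bins, at Cul3, a ubiquitin ligase scaffold gene, at nht and esg, a Snail-family zinc-finger gene, and at CG15258 and CG44869. Of the last 2, 7 bins lay at Lrch and CLIP-190 (chr2L:17377001-17412000) and 6 at Pgant35A and spel1 (chr2L:14338001-14370000).

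Hotspots were ranked by the lower of their 2 stage means, and the first in rank lay in the CG15269 gene. Its share was 31.5, 24.1 and 16.4 per 100000 in the larval WT libraries and 40.3, 27.6 and 36.9 in pupal WT. In embryos it was 10.6, 11.6 and 15.4 in WT and 12.2, 17.1 and 17.0 in titled WT. Nothing is read from the higher disc values, since they chose and ranked the bin. The gypsy2 discs differed from each other: larval libraries held 38.5, 35.0 and 40.4, and pupal libraries 7.70, 11.2 and 20.2. The wek hotspot held 24.7, 24.5 and 27.4 in larval WT and 12.8, 34.1 and 21.1 in pupal WT. In embryos it held 23.8, 28.5 and 25.4 in WT and 18.2, 28.3 and 33.0 in titled WT. These groups overlapped one another throughout, but the spread within pupal WT was wide, so the overlap does not show equal levels.

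The hotspots in CycE and CadN were also among the top 10. The hotspot in CycE held 15.3, 28.1 and 23.2 per 100000 in larval WT and 6.18, 29.99 and 35.0 in pupal WT. In embryo WT it held 6.45, 14.0 and 4.90, and in titled WT 5.33, 8.85 and 8.77, below every larval WT library in both groups. The hotspot in CadN, the gene of N-cadherin and the only 1 of the top 10 to the right of PRE2, held 28.2, 25.04 and 18.5 in larval WT and 13.7, 19.5 and 17.6 in pupal WT, against 12.2, 12.6 and 4.15 in titled WT. The titled WT values of both bins lay below their larval WT values, and since the bins were chosen for high disc values nothing is read from this.

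The hotspots with the highest titled WT shares were at Ku80, esg and CG15269. The hotspot over esg held 34.7, 24.9 and 34.5 per 100000 in titled WT and 26.0, 29.5 and 28.4 in embryo gypsy2. The same bin held 15.7, 14.5 and 22.8 in embryo WT, and 4.18, 7.13 and 15.9 in larval WT and 6.84, 0.598 and 9.14 in larval gypsy2. Pupal WT held 11.8, 15.8 and 14.8 and pupal gypsy2 14.4, 6.66 and 2.60. The bin was picked for its titled WT share, so nothing is read from titled WT standing above the other groups. The Ku80 hotspot held 28.4, 38.4 and 32.2 in titled WT and 28.2, 19.6 and 20.1 in larval WT, ranges that nearly touched.

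In composition the hotspots differed from their surroundings in several features that the choice did not read directly. The choice asked for a count in all 6 libraries, which 5187 of the 22513 far bins had. The nearby bins were not held to this, so these contrasts are not independent of the choice. They held 3.93 copies of GATC on average, against 2.56 in the 4990 other far bins within 50 kb of a hotspot, and 3.73 copies of CATG against 3.10. Of the 50-base words starting in a bin, 0.257% on average occurred more than once in the genome in hotspots, against 5.0% in nearby bins. The G and C content was 43.4% against 41.4%. Exons filled most of 123 hotspots (43.2%), where 27.5% of nearby bins were of this kind, and 84 hotspots were mostly intron and 78 mostly intergenic. A transcription start lay in 38 hotspots (13.3%) and in 9.98% of nearby bins. GAGAG, a word bound by GAGA factor and common in PREs, was counted on both strands and occurred in 69.1% of hotspots and in 68.4% of nearby bins. GATC and unique sequence thus differed between hotspots and neighbours by more than GAGAG did, and the part of each in the counts was not tested.

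Hotspots chosen in WT discs were high in most other groups as well. By group means from PRE2, 70.9% of the hotspots lay above the 97th percentile of the far bins in embryo WT, 61.8% in titled WT, 60.7% in gypsy1 and 61.8% in gypsy2 embryos, 60.4% in larval gypsy2 and 60.7% in pupal gypsy2, where all far bins give 3%. Counted from the gypsy2 viewpoint, the share was 60.4% in larval WT, 48.8% in pupal WT, 58.6% in embryo WT, 47.0% in titled WT, 56.5% in gypsy1 and 46.7% in gypsy2 embryos, 53.7% in larval gypsy2 and 49.1% in pupal gypsy2. In these 14 sets of counts a hotspot was thus high far more often than a far bin at large, in embryos as in discs and with or without an insertion. They come from 8 groups counted from 2 viewpoints. Larval and pupal WT from the gypsy2 viewpoint are the same samples that chose the bins from PRE2. The 3% covers all 22513 far bins, of which 5187 had a count in all 6 choosing libraries, as every hotspot did. The share among these 5187 bins was not computed. All libraries read the same bins, whose GATC copies and uniqueness do not change between groups, and the part of these features in the shared values was not tested.

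**Figure D2:**
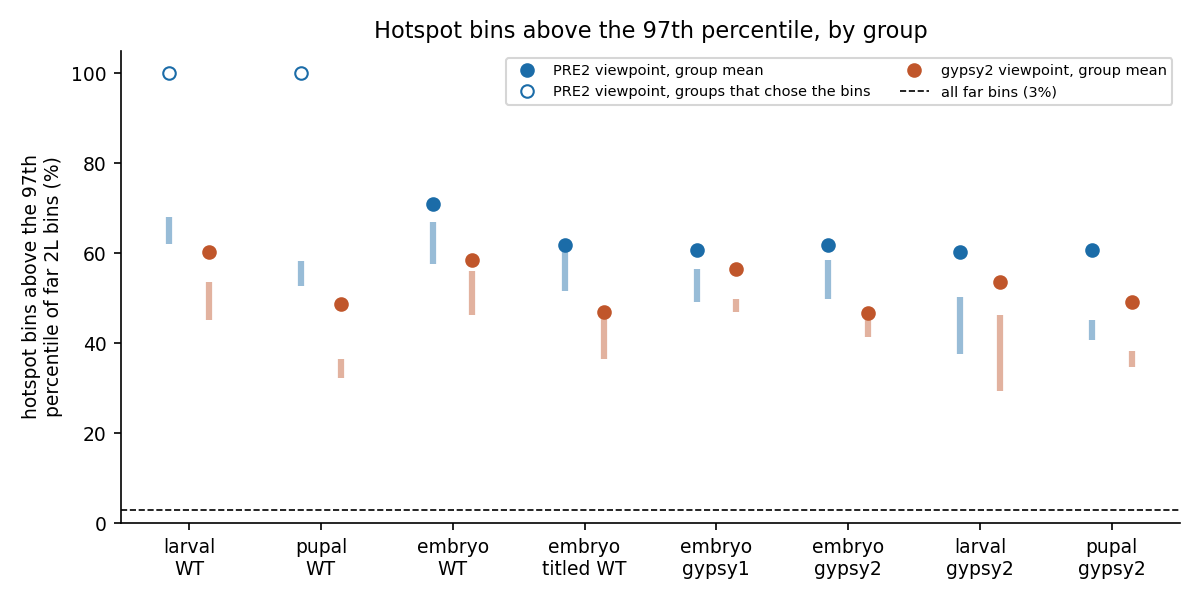
Percent of the 285 hotspot bins above the 97th percentile of far 2L bins (vertical axis) in each of the 8 groups, from the PRE2 viewpoint (blue) and the gypsy2 viewpoint (red). Circles are group means of 3 libraries, open where the group chose the bins, bars run from the lowest to the highest single library, and the dashed line is the 3% of all far bins.

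The number of groups in which a hotspot was high varied widely. From PRE2, 72 hotspots were above the 97th percentile in all 6 groups that did not choose the bins, and 18 in none. Seen from the gypsy2 viewpoint, 53 were above it in all 8 groups and 32 in none. There were 28 hotspots above it in all 14 of these sets of counts, from 8 clusters, among only 31 far bins of any kind that reached this. They lay at CG15269, wek, Gli, Mtr4, CycE, Tep1, beat-Ib, stol, vas, wwk and near wor, among other genes. Those at chr2L:15459001-15460000 and chr2L:15461001-15462000 had sna as their nearest gene, more than 10 kb away. At the other end, 6 hotspots were above it in none of the 14, at Ripalpha, Samuel, beta'COP, osp, cad and lncRNA:CR44917.

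Hotspots also stood above their own neighbourhood. In the PRE2 groups that did not choose them, the median hotspot was 2.53 to 2.78 times the median of the other bins within 50 kb, and from the gypsy2 viewpoint 2.25 to 2.51 times. Between 90.2% and 98.6% of hotspots lay above this local median in each group. Of the nearby bins themselves, 8.10% to 9.36% were above the 97th percentile of far bins in these groups. The hotspots thus stood above nearby bins that were themselves high more often than far bins at large. Of these nearby bins 78.5% held both GATC and CATG, where 100% of hotspots did, and the part of this in the contrast was not tested. Together they held 3.11% to 3.31% of the 2L counts from PRE2 in the groups that did not choose them, and 2.47% to 2.97% from the gypsy2 viewpoint, in 1.27% of the far bins.

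The clusters differed in how their levels varied across groups and viewpoints. The CycE to Ku80 cluster held 0.351% ± 0.0118 (SD, n = 3) of the 2L counts in larval WT, 0.362% ± 0.0193 in embryo WT and 0.375% ± 0.0153 in titled WT from PRE2. It held less from the gypsy2 viewpoint, 0.264% ± 0.0316 in larval WT and 0.251% ± 0.0343 in embryo WT. All 285 hotspots together also held less there, 2.50% against 3.14% from PRE2 in larval WT. Bins of every cluster were chosen for high PRE2 shares, so nothing is read from lower values at the gypsy2 viewpoint. The CycE to Ku80 hotspots remained above the 97th percentile in 19 to 22 of 23 cases in the other PRE2 groups. From the gypsy2 viewpoint this held in 13 to 20 of 23. The Dif and dl cluster to the right of PRE2 had 6 to 12 of its 15 hotspots above it in the other PRE2 groups and 2 to 7 from the gypsy2 viewpoint. The esg cluster held 0.0820% ± 0.00811 in larval WT from PRE2 and 0.0852% ± 0.00548 from the gypsy2 viewpoint. In titled WT it held 0.0931% ± 0.0103 from PRE2 and 0.129% ± 0.0113 from the gypsy2 viewpoint, and the libraries of the 2 viewpoints did not overlap there. Of its 8 hotspots, 4 to 7 were above the percentile in the other PRE2 groups and 5 to 8 from the gypsy2 viewpoint.

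**Figure D3:**
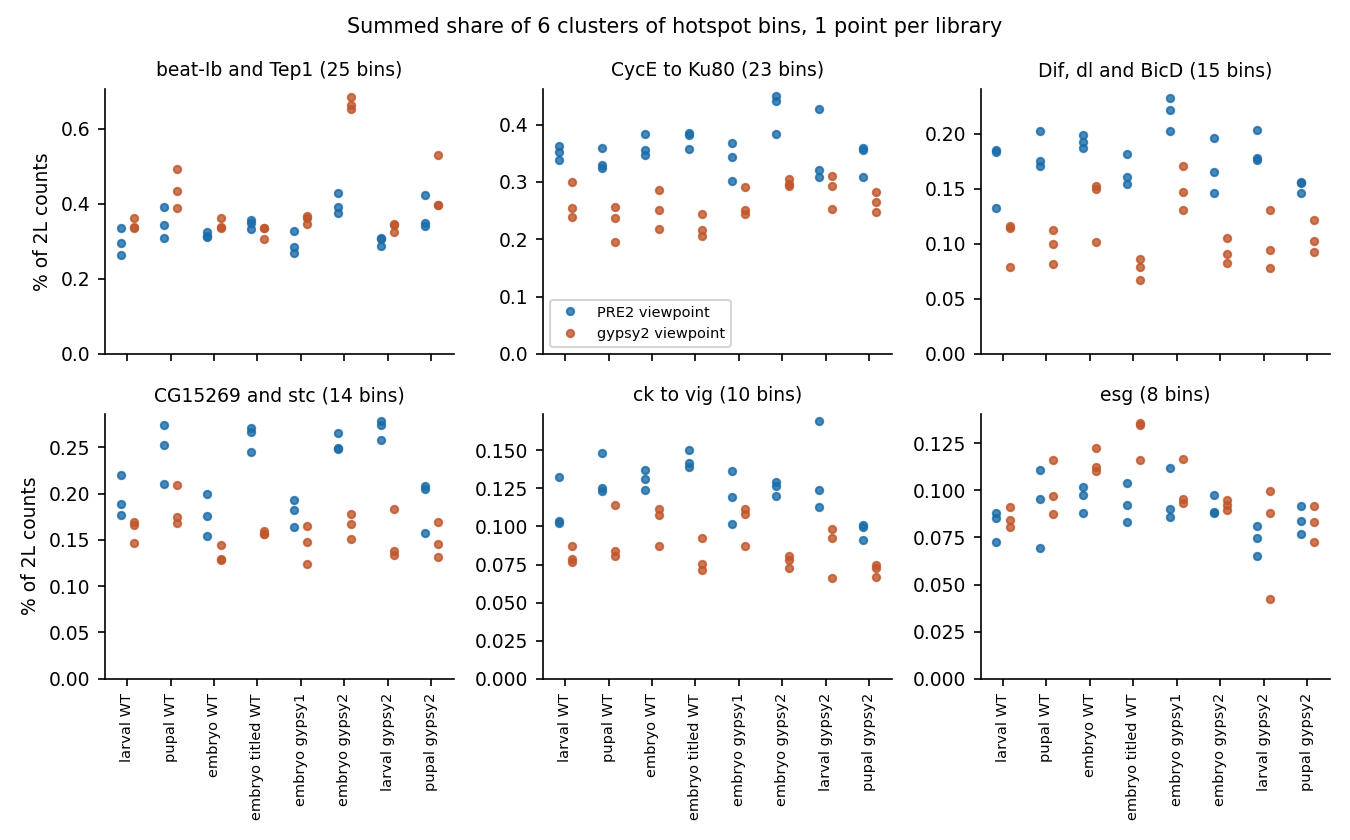
Summed share of the 2L counts in percent (vertical axes, from 0) of the hotspot bins of 6 clusters in the 8 groups, from the PRE2 viewpoint (blue) and the gypsy2 viewpoint (red), 1 point per library. In the beat-Ib and Tep1 cluster the 3 embryo gypsy2 libraries from the gypsy2 viewpoint stand at 0.651% to 0.685%, above all other points of that panel.

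Developmental genes under Polycomb control on 2L were followed as a list of 33 textbook genes. A hotspot lay within 10 kb of 9 of them, namely nub, elB, sna, esg, wor, tup, Lim3, ham and cad. All encode transcription factors, among them the Snail-family proteins Sna, Esg and Wor, and 17 genes of the list lay between the first and the last hotspot. tup had 8 hotspots near it, esg 3, wor and cad 2 each, and the others 1 each. These 20 hotspots made up 7.02% of the set, where 5.02% of all far bins and 6.03% of those between the first and last hotspot lay as near to a list gene. The share at Polycomb genes was thus close to that of the bins in the same range. Near wor, a hotspot held 10.6 and 13.4 per 100000 as larval and pupal WT means and was high in all 6 other PRE2 groups and all 8 gypsy2-viewpoint groups. Near tup, means from PRE2 were 7.85 to 13.2 in larval WT and 9.72 to 22.1 in pupal WT. No hotspot lay in the 126 bins of the histone gene cluster.

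In embryos with the gypsy2 insertion, no hotspot was called from PRE2 against titled WT. The test was edgeR's quasi-likelihood test over all bins with a mean count of at least 10, with Benjamini-Hochberg adjustment at 0.05. It called 0 of 285 hotspots, where it called 0.102% of all 79591 bins tested. At an unadjusted p under 0.05 there were 11 hotspots, where 2665 of the 79591 bins had this. DESeq2 called 2 hotspots, where it called 666 of all bins. The median hotspot differed by -0.05 on the log2 scale, close to the median of all bins tested, -0.09. Data were simulated with edgeR's fitted dispersions, its measure of the spread between libraries. There, 0 of 50 hotspots changed by 2 on the log2 scale were recovered and 22 of 50 changed by 4. The square root of the median hotspot dispersion (0.584) exceeded the median coefficients of variation of embryo gypsy2 and titled WT, 29.3% and 30.4%. The smallest change that this fit can detect was therefore not settled.

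In embryos with the gypsy1 insertion, 1 hotspot fell from PRE2 against embryo WT. This bin, over bsf and Ntf-2r (chr2L:18454001-18455000), held 7.57, 4.46 and 4.44 per 100000 in gypsy1 and 14.5, 12.6 and 13.5 in embryo WT, with 32 counts in each gypsy1 library. The groups did not overlap, and the log2 fold change was -1.42 (SE 0.322, edgeR adjusted p = 0.0181). edgeR called 131 of the 10636 bins tested here (1.23%), and 1 of the 285 hotspots was a smaller share than this. The call was lost without the gypsy1 library of column number 3 or 4, and without any of the embryo WT libraries (0 of 285 hotspots called in each case). In titled WT the same bin held 12.2, 10.9 and 12.8 and in embryo gypsy2 13.5, 11.7 and 18.8. For the gypsy2 viewpoint edgeR called 0 of 285 hotspots in gypsy1 embryos, where 0.214% of bins were called. There were 16 hotspots at an unadjusted p under 0.05, where 887 of all 14035 bins had this. DESeq2 called 0 hotspots, where it called 31 of all bins higher and 22 lower.

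From the gypsy2 viewpoint, 6 hotspots rose in embryo gypsy2 against titled WT and none fell. edgeR called 0.169% of the 78225 bins tested, and 0.219% of the far bins. Of the 6, 2 lay in stol, which encodes a calcium-channel subunit, and 4 in the beat-Ib and Tep1 cluster. The first stol hotspot (chr2L:15648001-15649000) held 42.4, 79.8 and 60.5 per 100000 in embryo gypsy2 and 25.8, 13.2 and 17.6 in titled WT, a log2 fold change of 1.61 (SE 0.280, edgeR adjusted p = 1.12e-05). The other stol hotspot (chr2L:15650001-15651000), whose window is printed above, held 43.5, 54.7 and 45.1 against 12.6, 14.5 and 13.5, a log2 fold change of 1.72 (SE 0.317, edgeR adjusted p = 6.57e-05). In both bins the groups did not overlap, and embryo WT lay at 13.3 to 16.2, within the range of titled WT or near it.

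The 4 hotspots of the beat-Ib and Tep1 cluster rose by similar factors. At CG31821 (chr2L:15901001-15902000) embryo gypsy2 held 34.9, 54.2 and 67.5 per 100000 and titled WT 10.95, 13.8 and 20.3, a log2 fold change of 1.63 (SE 0.303, edgeR adjusted p = 7.79e-05). At beat-Ib and CG13244 (chr2L:15917001-15918000) the values were 38.6, 32.4 and 38.7 against 12.8, 7.58 and 11.4, a log2 fold change of 1.70 (SE 0.358, edgeR adjusted p = 0.00184). The remaining 2 lay in beat-Ib (chr2L:15919001-15920000, log2 1.26, edgeR adjusted p = 0.0272) and at beat-Ib and CG4793 (chr2L:15926001-15927000, log2 1.59, edgeR adjusted p = 0.0398). The whole cluster of 25 hotspots held 0.651%, 0.685% and 0.664% of the 2L counts in embryo gypsy2, against 0.306%, 0.335% and 0.337% in titled WT. In embryo WT it held 0.345% ± 0.0153 (SD, n = 3) and in gypsy1 0.358% ± 0.0111.

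The cluster was set beside its controls from both viewpoints and in the discs. In embryo gypsy2 against titled WT from the gypsy2 viewpoint, 19 of the 25 cluster hotspots were higher with no overlap between groups and none was lower, against 23 higher and 17 lower among the 260 other hotspots. Of all far bins, 6.12% were higher without overlap and 6.09% lower. Counted from PRE2, 1 of the 25 was higher without overlap and none was lower, where 5.07% and 5.23% of far bins were, but 19 of the 25 had a higher mean. The summed share from PRE2 was also higher without overlap, with 0.430%, 0.391% and 0.376% in embryo gypsy2 against 0.349%, 0.334% and 0.356% in titled WT. In larval gypsy2 the cluster held 0.337% ± 0.0110 from the gypsy2 viewpoint and in larval WT 0.345% ± 0.0139. In the pupal groups it held 0.441% ± 0.0769 and 0.439% ± 0.0529. The difference of differences between viewpoints, chosen after the values were seen, was 0.82 to 2.01 on the log2 scale for the 6 called hotspots, with a lowest edgeR adjusted p of 0.0805. Against the larval contrast it was 1.32 to 2.12 (lowest adjusted p = 0.416), and against the pupal contrast 0.81 to 2.24 (lowest adjusted p = 0.355). A difference between viewpoints or stages was therefore not called for any hotspot (0 of 285 in each test). At an unadjusted p under 0.05 there were 16, 7 and 5 hotspots, a count that was not taken over all bins. These 3 tests were run with edgeR alone, which called 0.0789%, 0.0339% and 0.0692% of all bins tested.

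**Figure D4:**
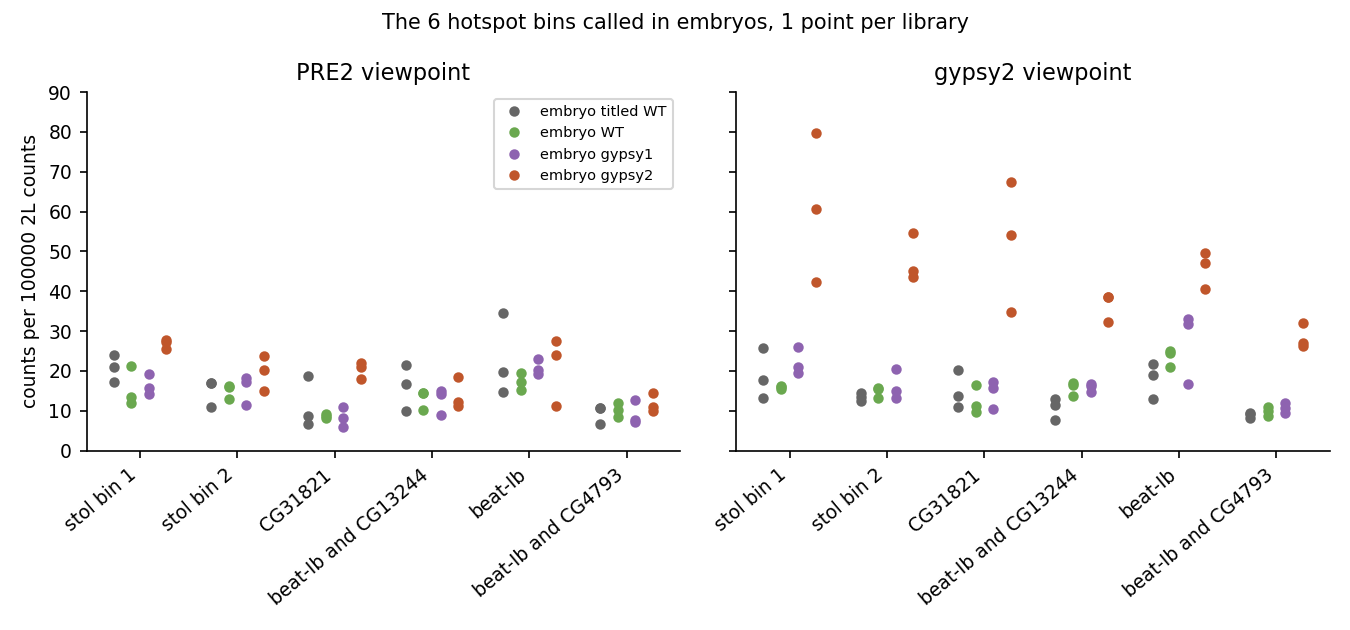
Counts per 100000 2L counts (vertical axis, from 0) of the 6 hotspot bins called in embryo gypsy2 against titled WT, from the PRE2 viewpoint (left) and the gypsy2 viewpoint (right), 1 point per library in 4 embryo groups. From the gypsy2 viewpoint all 3 embryo gypsy2 points lie above all titled WT points in each bin.

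The calls of these 6 hotspots depended on which bins and libraries entered the fit. With only far 2L bins in the fit, 1 of the 6 was called, the second stol hotspot (adjusted p = 0.0461), and with embryo WT as the control 15 hotspots were called, 8 higher and 7 lower. Against that control 2 of the 6 lost their call, at beat-Ib and CG13244 (log2 0.96, adjusted p = 0.194) and in beat-Ib (log2 0.69, adjusted p = 0.666). Without embryo gypsy2 replicate 4 or 5 or titled WT replicate 5, 3 hotspots were called. In data simulated with edgeR's fitted dispersions, 0 of 50 hotspots changed by 2 on the log2 scale were recovered and 14 of 50 changed by 4. The square root of the median hotspot dispersion (0.674) exceeded the median coefficients of variation of embryo gypsy2 and titled WT, 33.2% and 33.1%. The measured libraries gave calls at log2 1.26 to 1.72, so the simulation does not set the smallest detectable change.

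The leg discs with the gypsy2 insertion are compared with WT from PRE2 by values only, since WT chose the bins. Larval gypsy2 was higher without overlap in 17 hotspots (5.97%, where 3.9% of far bins were) and lower in 15 (5.26%, where 5% were). As shares of far counts instead, the counts were 5 higher and 25 lower, so the balance turned with the scaling. Pupal gypsy2 was higher in 4 (1.40%, against 5.66%) and lower in 24 (8.42%, against 3.64%), and as shares of far counts in 2 and 29. Bins chosen for high WT values will tend to be lower elsewhere, so nothing is read from the lower counts. The hotspot in CG15140 (chr2L:17278001-17279000) was lower in both stages, with 13.4, 12.0 and 9.99 per 100000 in larval WT against 4.87, 2.29 and 4.09, and 9.19, 9.55 and 11.6 in pupal WT against 5.76, 0 and 0. A hotspot in beat-Ib (chr2L:15911001-15912000) ran the other way in pupae, with 26.7, 33.5 and 39.7 in gypsy2 against 9.49, 13.1 and 4.81 in WT. These bins were picked after their values were seen.

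From the gypsy2 viewpoint, whose counts did not choose the bins although the WT samples are the same, no hotspot was called in gypsy2 discs. In larvae edgeR called 0 of 285 hotspots, where 0.11% of bins were called. There, 5 hotspots and 1298 of all 39037 bins had an unadjusted p under 0.05. In pupae it called 0 of 285, where 0.109% of bins were called. There, 4 hotspots and 1598 of all 62346 bins had an unadjusted p under 0.05. DESeq2 called 0 and 1 hotspots, where it called 131 and 2193 of all bins. Between stages of the gypsy2 line from PRE2, edgeR called 0 of 285 hotspots in pupal against larval discs (0.0905% of bins). An unadjusted p under 0.05 was found for 7 hotspots and 1311 of all 45292 bins. In larval discs against embryos edgeR called 0 of 285 (0.0577% of bins). An unadjusted p under 0.05 was found for 18 hotspots and 4754 of all 60654 bins. DESeq2 called 0 and 3 hotspots between stages, where it called 604 and 470 of all bins. Pupal and larval gypsy2 libraries serve in several of these comparisons, so the results are not independent. In data simulated with edgeR's fitted dispersions, 0 of 50 hotspots changed by 2 on the log2 scale were recovered in each of these 4 comparisons. At 4 on the log2 scale, 4 of 50 were recovered in larval discs, 0 in pupal discs, 6 between disc stages and 7 between larvae and embryos. The median hotspot dispersions, 0.860 to 2.30, give a wider spread than the hotspot shares showed between libraries. The smallest detectable change was therefore not settled, and 0 calls do not show that hotspots were unchanged.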

How the data were processed

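The authors deposited tables of raw 4C-seq counts per 1-kb bin, 1 column per library and 1 table per viewpoint and stage (6 tables, 48 columns). Bowtie and dm6 stand in the submitters' processing notes. No source used here states the enzymes, the read filters or how PCR copies were handled, so the counting error given takes every count as independent. The SDs, standard errors and p-values cover the spread between the libraries. Groups came from the sample labels. The hotspots and the gene list were chosen with earlier results of these data known. Shares were computed per 100000 2L counts outside 5 kb of the viewpoint. Counts were tested with edgeR 4.0.16 (R 4.3.3; TMM factors, glmQLFit and glmQLFTest, only the groups compared, Benjamini-Hochberg over all bins tested), and with DESeq2 1.42.0 as an alternative. Other alternatives were the library size, the filter, far bins alone, another control, a block on replicate number, other percentiles and each library left out. The fit was tested on simulated data with 200 changed hotspots. Named were the 10 hotspots with the highest lower stage mean, up to 10 clusters with most hotspots, up to 5 called hotspots per direction and comparison, and the 3 hotspots highest in titled WT. Genes came from Ensembl release 115, by overlap or else the nearest. Sequences were read from the dm6 reference with Python 3.11.15, in windows holding no UTR. Hi-C and other data types of the series were not analysed here.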

Additional observations from a re-analysis of the deposited data

Results flagged for a closer look

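A bin inside the largest cluster that was not a hotspot (chr2L:15903001-15904000, nearest to CG31821) differed between viewpoints, and between embryos and larvae, in its contrast of gypsy2 with control libraries, while a difference between embryos and pupae was not called. From the gypsy2 viewpoint it held 19.3, 20.1 and 42.7 per 100000 in embryo gypsy2 and 0, 0 and 0.694 in titled WT. From PRE2 it held 6.44, 12.5 and 5.88 against 1.52, 0.601 and 0.480. The gypsy2-viewpoint contrast exceeded the PRE2 contrast by 6.30 on the log2 scale (edgeR adjusted p = 1.19e-05). Within the gypsy2 viewpoint the embryo contrast exceeded the larval contrast by 5.43 (edgeR adjusted p = 0.0475), and larval gypsy2 held 10.6, 0.745 and 5.77 against 0.117, 5.43 and 1.57 in WT. Counted from PRE2, larval gypsy2 held 19.2, 24.4 and 13.8 against 0, 4.48 and 0.698 in WT, and pupal gypsy2 5.63, 7.94 and 1.92 against 0.865, 0.0242 and 0. From the gypsy2 viewpoint the bin held 9.68, 12.4 and 21.9 in pupal gypsy2 against 0, 0.509 and 0.0254 in pupal WT, and there the embryo contrast exceeded the pupal contrast by 0.12 (unadjusted p = 0.929 in edgeR's quasi-likelihood test, adjusted p = 1). These tests were chosen after the values were seen, and the fitted values depend on the libraries at 0. In embryos of the gypsy1 insertion the bin held 0, 0 and 0 from the gypsy2 viewpoint. The bin was thus at most 1.52 in the pupal WT, embryo WT, titled WT and gypsy1 libraries of both viewpoints, and above 5 in each embryo gypsy2 library of both viewpoints. Larval libraries did not split this way, with 5.43 and 4.48 in single WT libraries and 0.745 in a gypsy2 library. The embryo contrast from the gypsy2 viewpoint was called by edgeR (adjusted p = 8.47e-26). It was not called with far bins only (edgeR adjusted p = 0.159) or by DESeq2 (adjusted p = 0.117). The cause was not tested.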

How the results depend on the processing

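Calls of single hotspots depended on the fit. Against titled WT from PRE2 (main count 0) the count of hotspots called was 1 with the 2L counts as library size, 2 with embryo WT as control, 2 with DESeq2, and 0 to 1 with a library left out (1 without titled WT replicate 6). For gypsy1 from PRE2 (1) it was 0 with no filter on low counts and 0 to 1 with a library left out (0 without any library but that of gypsy1 column 1). For gypsy2 embryos from the gypsy2 viewpoint (6) it was 10 with the 2L counts as library size, 1 with far bins only, 15 with embryo WT as control (8 higher and 7 lower), 10 with DESeq2, and 3 to 7 with a library left out (3 without gypsy2 replicate 4 or 5 or titled WT replicate 5). DESeq2 called 1 hotspot in pupal discs from the gypsy2 viewpoint (0). In larval discs against embryos (0), a mean count of at least 5 gave 1, no filter 1, DESeq2 3, and a library left out 0 to 1 (1 without larval gypsy2 replicate 1). Counts of all bins called were 81 with edgeR and 666 with DESeq2 (gypsy2 embryos, PRE2), 132 and 878 (gypsy2 viewpoint), 30 and 53 (gypsy1, gypsy2 viewpoint), 43 and 131 (larval discs), 68 and 2193 (pupal discs), 41 and 604 (pupal against larval), and 35 and 470 (larval against embryo). With a library left out these counts, in the same order, were 23 to 90, 90 to 129, 6 to 128, 21 to 55, 52 to 63, 21 to 64 and 0 to 79, and 56 to 146 for gypsy1 from PRE2 (131). Moves of over 1.5 times came in PRE2 embryos without gypsy2 replicate 4, 5 or 6 or titled WT replicate 5 (36, 32, 23 and 37), for gypsy1 from PRE2 without embryo WT replicate 1, 2 or 3 (78, 66 and 56), and for gypsy1 from the gypsy2 viewpoint without any 1 library (128 without column number 3, and 6 to 17 otherwise). They came in larval discs without WT replicate 1 or 3 (21 and 24), between disc stages without pupal replicate 3 (21) or larval replicate 2 (64), and between larvae and embryos without larval replicate 2 (79) or 3 (7) or embryo replicate 4 (1), 5 or 6 (0). The cause of these changes was not tested.

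Deviations of same-numbered libraries correlated weakly, at -0.017 to 0.167. The highest values were those of gypsy1 against embryo WT, 0.03 to 0.075 from PRE2 and 0.064 to 0.167 from the gypsy2 viewpoint. In both, each gypsy1 library correlated best with its own number, which the main fits did not use. With the replicate block, 2 hotspots were called for gypsy1 from PRE2, 0 for gypsy1 from the gypsy2 viewpoint and 4 for gypsy2 embryos from the gypsy2 viewpoint. Larval discs and embryos share no numbers, so no blocked fit was made.

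The set was 505 hotspots at the 95th percentile and 75 (34 clusters) at the 99th, 18 (12 clusters) with every library above the 97th, and 244 to 275 (90 to 108 clusters) with a library left out. Chosen at the 95th and 99th percentile, the percent of hotspots above the 97th percentile from PRE2 was 58.2 and 92.0 in embryo WT, 50.5 and 78.7 in titled WT, 51.7 and 82.7 in gypsy1, 51.3 and 80.0 in gypsy2 embryos, 50.7 and 77.3 in larval gypsy2 and 48.5 and 88.0 in pupal gypsy2. From the gypsy2 viewpoint it was 48.7 and 82.7 in larval WT, 42.2 and 69.3 in pupal WT, 48.5 and 74.7 in embryo WT, 40 and 62.7 in titled WT, 46.3 and 73.3 in gypsy1, 37.2 and 62.7 in gypsy2 embryos, 43.4 and 72.0 in larval gypsy2 and 39.8 and 65.3 in pupal gypsy2. As shares of far counts, larval gypsy2 from PRE2 was higher without overlap in 5 and lower in 25 hotspots, and pupal gypsy2 higher in 2 and lower in 29.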

Other observations

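Beside the called hotspots, other far bins of the same stretches rose in embryo gypsy2 against titled WT from the gypsy2 viewpoint. Within 50 kb of the stol hotspots, edgeR called 5 of 103 bins, all higher, of which 2 were hotspots. Within 50 kb of the called beat-Ib and CG31821 hotspots it called 9 of 126 bins, all higher, of which 4 were hotspots. In all, 27 far bins were called higher and 14 lower, and the 2 stretches were marked out after the calls were seen. From PRE2, edgeR called 4 far bins higher and 4 lower in the same embryos.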
